A study of Mus musculus with 4 samples.

Results

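The 10 Krüppel-like factor genes (Klf2, Klf3, Klf4, Klf6, Klf7, Klf9, Klf10, Klf12, Klf13 and Klf16) were followed through single nuclei of the mouse hippocampus, as 10 of the 32285 genes counted. They were found by their gene symbols. The family was chosen by the values of these same libraries, since Klf10 was lower in mutant than in control mice over all nuclei, so that difference is described below with no test. Unique molecular identifiers (UMIs, each 1 counted transcript) came from 2 wild-type (WT) and 2 knock-in (KI) mice, 1 library per mouse. KI mice carried 1 copy of the R87C change in Cyfip2, an actin-regulating gene of neurons, and were littermates of the WT mice. The mice had been made earlier as a model of an infantile epilepsy and were on a C57BL/6N background, and the change is in the germ line, so that every cell carried it. Hippocampi of both hemispheres were frozen before the nuclei were isolated. The labels give no age, and the study took these nuclei at the latest age it examined. The treatment label of KI replicate 2 reads R88C, while its genotype label reads KI, and it was kept with KI replicate 1. Cyfip2 itself had 182 and 180 CPM (a gene’s UMIs scaled to a total of 1000000) in WT and 172 and 171 in KI over all nuclei, and such counts do not tell the alleles apart.

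Krüppel-like factors are transcription factors that bind GC-rich and CACCC sequences through 3 zinc fingers at their C-terminal end. They fall into branches by the partners of their other end. Klf2, Klf4, Klf6 and Klf7 can recruit acetyltransferases and often activate genes, Klf3 and Klf12 bind the corepressor CtBP, and Klf9, Klf10, Klf13 and Klf16 bind the corepressor Sin3a. In brain the family is known for its part in neuron maturation, axon growth, myelination and responses to hormones, and in vessels Klf2 and Klf4 mark endothelium exposed to flow.

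Sequences are shown for genes whose levels set cell classes apart below, as the 250 bases before the RefSeq start site of build GRCm38.p6. Klf12 stood for a gene high in interneurons and OPCs, Klf13 for one high in oligodendrocytes, Klf9 for one high in astrocytes and Klf4 for one high in vessel and meningeal cells. RefSeq start sites were matched for 8 of the 10 genes, all but Klf10 and Klf16. Capitals mark GC boxes (GGGCGG, or CCGCCC on the other strand) and CACCC boxes (CACCC, or GGGTG on the other strand), the letters that the family's own zinc fingers are known to prefer. Where the 2 motifs share bases, both are in capitals.
Klf12: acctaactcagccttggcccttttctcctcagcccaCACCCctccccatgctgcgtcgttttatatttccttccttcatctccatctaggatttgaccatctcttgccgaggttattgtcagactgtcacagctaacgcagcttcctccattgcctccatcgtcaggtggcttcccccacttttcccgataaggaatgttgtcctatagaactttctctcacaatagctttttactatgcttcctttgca
Klf13: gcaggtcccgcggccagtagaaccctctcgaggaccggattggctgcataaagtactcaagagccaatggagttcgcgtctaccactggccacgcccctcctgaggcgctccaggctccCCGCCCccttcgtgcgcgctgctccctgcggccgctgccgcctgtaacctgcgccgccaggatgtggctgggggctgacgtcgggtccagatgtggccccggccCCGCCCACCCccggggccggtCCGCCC
Klf9: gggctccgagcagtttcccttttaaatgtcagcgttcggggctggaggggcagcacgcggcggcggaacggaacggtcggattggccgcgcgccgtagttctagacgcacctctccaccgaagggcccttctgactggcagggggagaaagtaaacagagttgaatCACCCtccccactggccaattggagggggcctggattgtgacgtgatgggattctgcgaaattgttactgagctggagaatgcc
Klf4: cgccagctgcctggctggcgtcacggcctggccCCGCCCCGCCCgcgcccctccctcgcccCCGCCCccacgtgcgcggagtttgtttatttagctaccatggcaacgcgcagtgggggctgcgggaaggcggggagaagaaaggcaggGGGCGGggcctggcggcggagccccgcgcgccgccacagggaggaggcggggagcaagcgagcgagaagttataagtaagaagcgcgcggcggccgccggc
The Klf12 window spans chr14:100149797-100150046 on the minus strand, inside an intron of the longer Klf12 transcripts. The Klf13 window spans chr7:63938916-63939165 on the minus strand, the Klf9 window chr19:23140976-23141225 on the plus strand and the Klf4 window chr4:55532476-55532725 on the minus strand, and all 3 end beside the start of their gene. None of the 4 windows overlaps an exon of the GENCODE M21 annotation. The Klf4 and Klf13 windows are rich in G and C, with 74% and 71.6% of their bases, against 59.6% for Klf9 and 48% for Klf12. A GC box was found in 6 of the 8 windows (not in Klf9 or Klf12) and in 32.7% of 32851 promoter windows of the same length. A CACCC box was found in 6 of the 8 (not in Klf4 or Klf6) and in 52.0% of all windows. The cyclic AMP response element TGACGTCA was in 0 of the 8 and in 1.55% of all. A match is a description of the letters and not of a bound site.

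After filtering, 52032 of 55640 barcodes were kept as nuclei, between 11932 and 14927 per library, with a median of 3868 to 4699 UMIs each. All levels are CPM over the nuclei named. Since 3′ ends were counted, levels were compared between classes and mice but not between genes. Nuclei were gated 1 by 1 on 18 marker lists in which none of the 10 genes stands, which put 38306 nuclei into classes and left 13726 (26.4%) ungated. Class names mean a likeness in these markers and no more. The 12 classes with at least 20 nuclei in every library were tested, while endothelial cells (102 nuclei) and CA2 pyramidal neurons (133 nuclei) are described only. Any 2 libraries shared 40 to 67 cell barcodes, and the replicate pairs 54 (WT) and 48 (KI). All libraries carry the same batch label, so no comparison between batches was possible. Free RNA in the droplets gives every nucleus a few UMIs of abundant genes, so a low level in a class need not come from its own nuclei.

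**Figure D1:**
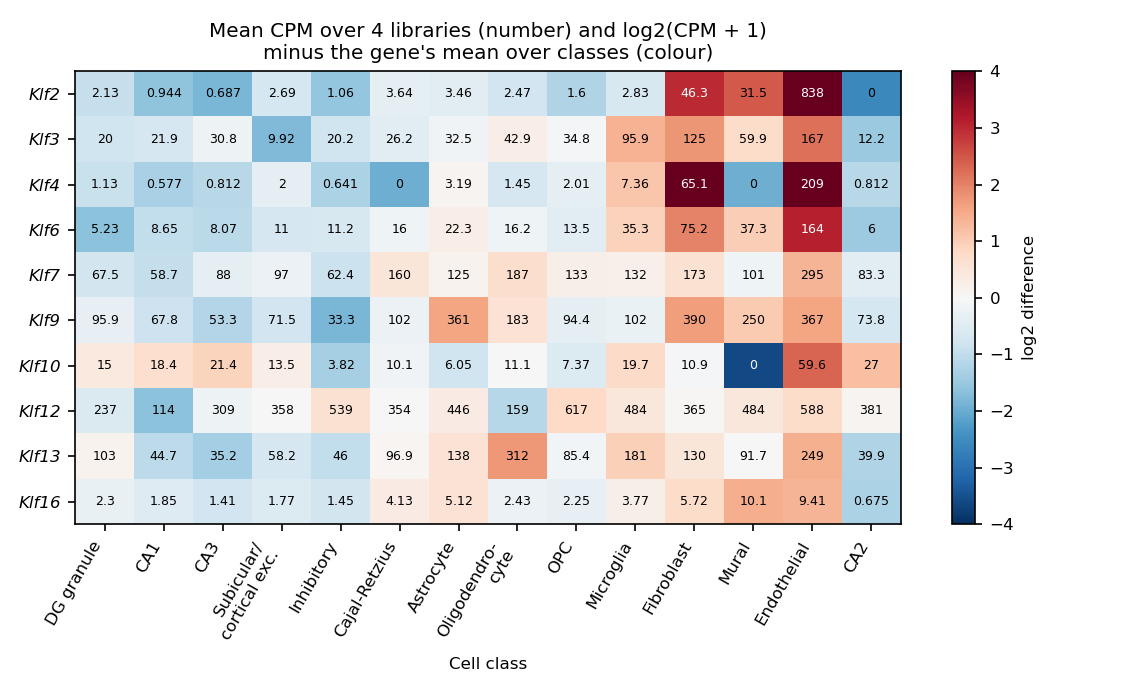
Mean CPM of each gene in 14 cell classes, with the number in each field the mean of 4 libraries and the colour the log2(CPM + 1) minus the gene's mean over classes. Klf2 and Klf4 stand out in endothelial cells (837.5 and 209 CPM). Klf13 has its highest mean in oligodendrocytes (312 CPM), before endothelial cells (249 CPM). Klf9 is at similar means in fibroblasts (390.2 CPM), endothelial cells (367 CPM) and astrocytes (361 CPM), and Klf10 is lowest in mural cells and inhibitory neurons.

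Each of the 10 genes passed the test below in at least 1 class. Klf16 passed in inhibitory neurons only, a call lost without single libraries. Each class was set against the mean of the other 11 by edgeR's quasi-likelihood test with the library as a block and Benjamini-Hochberg adjustment over all genes of a class. Of 120 such results, 22 were higher and 23 lower at an adjusted p below 0.05, where 21.7% of all results over all genes were called higher and 10.6% lower. Scaling by library totals, in place of TMM factors, changed the split over all genes from 40205 higher and 19660 lower to 31779 and 27927, and that of the 10 genes to 24 and 28.

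Among genes that bind Sin3a, Klf9 is induced by thyroid hormone and glucocorticoids. Its CPM in astrocytes was 332 and 307 in WT replicates 1 and 2, and 413 and 393 in KI replicates 1 and 2. All 4 libraries lay above every library of the neuron classes, and the log2 difference from the other classes was 1.78 (SE 0.12, adjusted p = 4.25e-17). Fibroblasts held 414, 229, 705 and 213 CPM in the same order from only 155 nuclei, with a log2 difference of 1.39 (adjusted p = 1.11e-06). Oligodendrocytes were also higher (log2 difference 0.72), although KI replicate 1 stood apart with 274 CPM against 138 to 176 in the other libraries. Klf9 was lowest in inhibitory neurons, with 36.7, 23.8, 35.5 and 37.4 CPM and a log2 difference of -1.69 (SE 0.15, adjusted p = 1.33e-13). CA3, CA1 and subicular neurons and microglia were lower as well, by 0.40 to 0.74 on the log2 scale. The CA1 call was lost without KI replicate 1 (adjusted p = 0.0954) and the microglial call without WT replicate 1, WT replicate 2 or KI replicate 2 (adjusted p = 0.195, 0.126 and 0.171).

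Klf13, a repressor of the same branch, had its highest mean level in oligodendrocytes. Its CPM was 320, 282, 421 and 225 there (log2 difference 1.95, SE 0.13, adjusted p = 2.58e-17). The lowest oligodendrocyte library lay above all libraries of every other neuron or glia class but microglia, whose KI replicate 1 had 280 CPM. Endothelial cells, not tested, held 233 to 273 CPM, within the range of the oligodendrocyte libraries. Microglia followed with 145, 140, 280.1 and 160 CPM (0.83, adjusted p = 0.000489), and astrocytes and DG granule neurons were higher by 0.58 and 0.50. Under 10 alternatives the DG call was lost in 2, with a log2 difference as low as 0.20. The microglial call was lost in 1, with one as low as 0.32. CA3 pyramidal neurons had the lowest level of the tested classes, 44.7, 43.6, 20.3 and 32.0 CPM (-1.06, adjusted p = 2.05e-06). Inhibitory, CA1 and subicular neurons were lower by 0.84, 0.71 and 0.49. The astrocyte call was lost without KI replicate 2 (0.29, adjusted p = 0.334) and the subicular call without KI replicate 1 (-0.30, adjusted p = 0.0979). Klf16, first described as a regulator of dopamine receptor genes, was sparse, with 583 UMIs in all nuclei. Over all nuclei it had 2.59 and 2.58 CPM in WT, against 1.39 and 1.88 in KI, and inhibitory neurons were called lower at 1.67, 1.41, 0.972 and 1.74 CPM (-0.80, adjusted p = 0.0436). That call was lost without WT replicate 1, KI replicate 1 or KI replicate 2 (adjusted p = 0.124, 0.0530 and 1). Over the 9 classes with at least 100 nuclei per library, a choice made after seeing the data, Klf16 was also called higher in astrocytes (1.11, SE 0.39, adjusted p = 0.0180). Its highest means stood in mural, endothelial and fibroblast nuclei, but these rest on 1, 3 and 2 UMIs.

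Of the CtBP-binding genes, Klf12 represses AP-2 genes. OPCs (oligodendrocyte precursor cells) held 619, 731, 622 and 497 CPM, and inhibitory neurons 470, 540, 577 and 572 CPM. Both were higher than the other classes, by 1.03 (SE 0.14, adjusted p = 4.14e-08) and 0.99 (SE 0.13, adjusted p = 1.52e-08) on the log2 scale. Astrocytes, at a mean of 446 CPM, were also higher (0.49, SE 0.15, adjusted p = 0.00604), a call lost under 2 of 10 alternatives. Endothelial cells, not tested, had a mean of 588 CPM. Mural cells and microglia had 484 CPM each and did not pass. Among neurons Klf12 spanned a wide range, since CA1 pyramidal neurons were at the other end with 73.2, 98.0, 145 and 139 CPM (-1.32, SE 0.16, adjusted p = 2.01e-09). CA3 pyramidal neurons had 262 to 412 CPM, with no overlap with CA1. Oligodendrocytes, which derive from OPCs, had 107, 127, 166 and 238 CPM (-1.17, adjusted p = 3.59e-08). The antisense gene 4930517O19Rik overlaps Klf12 on the other strand with 27199 UMIs in all nuclei, and whether counting used strand is not given in the sources used here. Klf3, known in blood cells and fat as a repressor, was raised in microglia with 107, 129, 85.7 and 62.8 CPM (1.36, SE 0.19, adjusted p = 7.02e-08) and in fibroblasts with 240, 34.3, 74.2 and 152 CPM (1.43, adjusted p = 0.00167), the latter lost without KI replicate 2 (1.05, adjusted p = 0.107). Its lowest level was in subicular or cortical excitatory neurons, 10.1, 11.2, 8.34 and 10.1 CPM (-1.66, SE 0.19, adjusted p = 2.87e-10). Every library of that class lay below every library of the other tested classes, apart from 1 library of Cajal-Retzius cells and 1 of mural cells.

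Of the genes that recruit acetyltransferases, Klf7 promotes axon growth in developing neurons. It was higher in oligodendrocytes, at 195, 200.2, 212 and 138 CPM (0.85, SE 0.10, adjusted p = 3.79e-10), and these libraries lay above those of every tested neuron class but Cajal-Retzius cells. Fibroblasts had 218, 206, 198 and 70.9 CPM, which did not pass the test, and OPCs were higher by 0.37, a call lost without WT replicate 1 or 2 (adjusted p = 0.227 and 0.188). Inhibitory, CA1 and DG neurons were lower by 0.62, 0.55 and 0.42, at means of 62.4, 58.7 and 67.5 CPM. Klf6, which is induced by injury in many tissues, was lowest in DG granule neurons with 3.99, 4.49, 5.99 and 6.45 CPM (-1.48, SE 0.27, adjusted p = 1e-05). It was higher in fibroblasts and microglia, by 2.16 (SE 0.50, adjusted p = 0.000941) and 0.92 (SE 0.34, adjusted p = 0.0332). The fibroblast call rests on the KI mice, since these nuclei held 0 and 11.4 CPM in WT and 86.6 and 203 in KI, and it was lost without KI replicate 2 (1.01, adjusted p = 0.439). The microglial call was lost without WT replicate 2 or KI replicate 1 (0.68 and 0.47, adjusted p = 0.252 and 0.563). Microglia held 11.4, 45.1, 71.8 and 13.1 CPM, while mural cells, with 4 UMIs in all, held 0, 0, 27.8 and 121 CPM.

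Klf2 and Klf4, which keep endothelium in its resting state, were vessel genes. Endothelial cells were 0.196% of all nuclei but held 234 of the 773 UMIs of Klf2 (30.3%) and 56 of the 384 UMIs of Klf4 (14.6%). Klf2 there was at 764, 808, 706 and 1072 CPM and Klf4 at 199, 276, 141 and 221 CPM, above every library of all other classes. Klf2 came to 1.28 to 3.42 UMIs per endothelial nucleus, against 0.0306 or fewer per nucleus in each library of the DG, CA1, CA3, inhibitory and subicular classes. These counts come from 12 to 36 endothelial nuclei per library and were not tested. Klf3, Klf6, Klf7 and Klf10 also had their highest mean in endothelial cells, with Klf6 at 116, 158, 141 and 242 CPM.

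Among tested classes, fibroblasts were highest for both, with 43.6, 68.7, 12.4 and 60.8 CPM of Klf2 (log2 difference 3.80, SE 0.60, adjusted p = 1.86e-06) and 109, 45.8, 24.7 and 81.0 CPM of Klf4. Mural cells had 37.8, 47.8, 0 and 40.5 CPM of Klf2, from 4 UMIs. Klf2 was lower in CA3, CA1 and inhibitory neurons, by 1.95, 1.40 and 1.38, of which the CA1 and inhibitory calls depended on the classes in the fit. All 3 were lost without KI replicate 2 (-1.59, -0.82 and -0.83, adjusted p = 1 each). Klf4 was at 0 UMIs in 215 Cajal-Retzius cells and in 90 mural cells, which allows up to 5.33 and 23.3 CPM (3 counts over the class, counting error only). Since such a class pulls down the mean of the others in the fit, levels were also tested over the 9 classes with at least 100 nuclei per library, an alternative chosen after seeing the data. Of 90 results in both fits, 40 were called in each and 34 in both. Klf2 lost the call in CA1 (-0.64, adjusted p = 0.149) and inhibitory neurons (-0.64, adjusted p = 0.161), and Klf9 in CA1 neurons (-0.22, adjusted p = 0.0886) and microglia (-0.33, adjusted p = 0.0814). Klf4 was higher in microglia in both fits, by 1.99 over 9 classes (SE 0.59, adjusted p = 0.00775) and by 2.53 over 12 (SE 0.83, adjusted p = 0.0174). Its CPM there was 1.91, 2.25, 6.94 and 18.3, and the call over 12 classes was lost under 2 of 10 alternatives. Over 9 classes Klf4 was also lower in inhibitory and CA1 neurons by 1.24 and 1.09, neither of which was called over 12 classes. The microglial value rests on 12 UMIs and mostly on KI replicate 2.

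Klf10 (ENSMUSG00000037465, chromosome 15, 38291463 to 38300706, minus strand) encodes a repressor that TGF-β induces within a short time of stimulation. Over all nuclei its CPM was 22.7 and 24.1 in WT and 8.42 and 8.12 in KI, from 4342 UMIs. Both KI libraries lay below both WT libraries, and the log2 fold change (KI over WT) was -1.45 (SE 0.12). In sums over all nuclei, fewer nuclei of a class and less RNA per nucleus cannot be told apart, so the classes were weighted by their mean share of UMIs in WT, which was also chosen after seeing the data. CPM then came to 22.7 and 23.8 in WT and 8.59 and 7.78 in KI, a log2 ratio of -1.51.

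**Figure D2:**
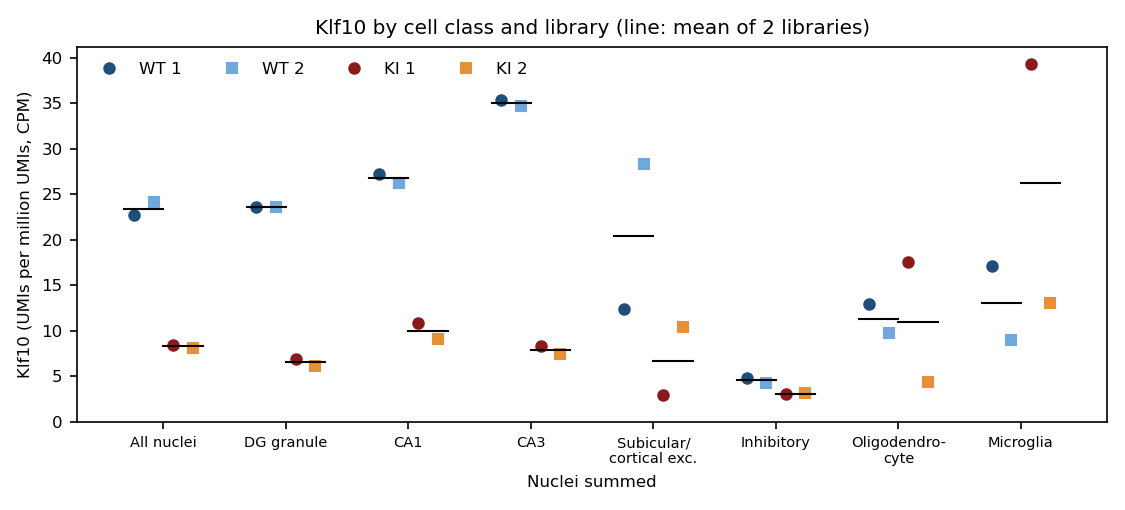
Klf10 CPM in each library for all nuclei and 7 classes, where points are libraries and lines the mean of 2. The 2 KI libraries sit near 6 to 11 CPM in DG, CA1 and CA3 neurons, against 23.5 to 35.4 CPM in WT, whereas oligodendrocytes and microglia overlap between genotypes.

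In WT mice the highest means of Klf10 among tested classes were those of CA3, CA1 and DG neurons. CA3 pyramidal neurons held 35.4 and 34.7 CPM, CA1 pyramidal neurons 27.2 and 26.2, and DG granule neurons 23.5 and 23.6, an order in which neighbours did not overlap. Subicular or cortical excitatory neurons held 12.4 and 28.4 CPM, which overlapped DG and CA1. Inhibitory neurons had 4.85 and 4.23 CPM. Cajal-Retzius cells had 16.6 and 16.4, microglia 17.2 and 9.02 and oligodendrocytes 12.9 and 9.71 CPM, values that reach the lower subicular library. Against the other 11 classes over all 4 libraries, Klf10 was higher in CA3 neurons by 2.15 (SE 0.43, adjusted p = 3.84e-05), in CA1 neurons by 1.94 (SE 0.45, adjusted p = 0.000312) and in DG granule neurons by 1.46 (SE 0.52, adjusted p = 0.0208), and no class was called lower. The DG call was lost without WT replicate 1 or 2 (adjusted p = 0.0927 and 0.191). Over the 9 larger classes these were 1.26 (adjusted p = 0.000155), 1.06 (adjusted p = 0.00104) and 0.55, the last no longer called (adjusted p = 0.0804). Inhibitory neurons were called lower in that alternative (-1.55, SE 0.36, adjusted p = 0.000534) but not over 12 classes (-0.57, adjusted p = 1). Mural cells were at 0 UMIs in 90 nuclei, which allows up to 23.3 CPM. Endothelial cells reached 66.4 and 98.5 CPM in WT and 31.4 and 42.1 in KI, but from 15 UMIs in all.

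Klf10 was at a lower level in KI in DG granule, CA3, CA1 and subicular or cortical neurons, as a part of the total that chose the family, so these values are given with no test. DG granule neurons of KI mice had 6.91 and 6.13 CPM (-1.72, SE 0.17). CA3 pyramidal neurons had 8.34 and 7.40 CPM (-2.05, SE 0.19) and CA1 pyramidal neurons 10.8 and 9.10 CPM (-1.33, SE 0.18). In each of these 3 classes the genotypes did not overlap. Subicular or cortical excitatory neurons had 2.90 and 10.4 CPM (-1.59, SE 0.56), with WT replicate 1 close to KI replicate 2. The 133 CA2 pyramidal neurons overlapped between genotypes, at 17.4 and 29.7 CPM in WT and 54.5 and 6.50 in KI, from 32 UMIs. Nuclei outside all gates had 26.7 and 29.7 CPM in WT and 8.46 and 11.1 in KI.

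Other classes held little of the change over all nuclei, a share that also follows how many UMIs a class holds. Inhibitory neurons had 4.85 and 4.23 CPM in WT and 3.05 and 3.13 in KI (-0.46, SE 0.33), with no overlap. Cajal-Retzius cells did not overlap either, at 16.6 and 16.4 CPM in WT and 0 and 7.29 in KI, from 5 UMIs in all. Oligodendrocytes had 12.9 and 9.71 CPM in WT and 17.5 and 4.32 in KI (-0.01, SE 0.63), and microglia 17.2 and 9.02 against 39.4 and 13.1. In both classes KI replicate 1 was the highest library, and the genotypes overlapped. Of the difference in CPM between WT and KI over all nuclei, DG granule neurons held 33.1%, ungated nuclei 23.0%, CA3 neurons 21.4%, CA1 neurons 18.0% and subicular or cortical neurons 4.65%. Oligodendrocytes went the other way with -1.37%.

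Per nucleus, Klf10 came to 0.107 and 0.116 UMIs in WT DG granule neurons and 0.0354 and 0.0314 in KI. In inhibitory neurons these values were 0.0289 and 0.0257 in WT and 0.0232 and 0.020 in KI, and in oligodendrocytes 0.0266, 0.0220, 0.0385 and 0.0196. Such near-equal low values in unlike classes are what free RNA can also give, and its part there was not tested. Microglia had 0.0354 and 0.0178 UMIs per nucleus in WT and 0.068 and 0.0352 in KI, so that DG nuclei of KI mice lay above inhibitory neurons but not above microglia of the same libraries. DG nuclei lay below oligodendrocytes in KI replicate 1 and above them in KI replicate 2.

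The log2 fold change of Klf10 (KI over WT) in inhibitory neurons minus that in DG granule neurons was 1.28 (SE 0.29). It rests on the values that chose the family and is given with no test. The same difference was 1.52 (SE 0.54) for oligodendrocytes minus DG granule neurons and -0.73 (SE 0.20) for CA3 minus CA1 neurons.

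Genes whose levels followed Klf10 most closely were sought over 48 sums (12 classes in 4 libraries) of log2(CPM + 1). Among 13056 genes with a mean of at least 5 CPM, the highest Pearson correlations were those of 2810455O05Rik (0.84), Zkscan6 (0.80), Nr4a1 (0.78), Gpr26 (0.77) and D2hgdh (0.76). Points of 1 library share their depth and mouse, so no p was computed. Nr4a1, an immediate early gene, had 45.7 and 37.6 CPM in WT CA1 neurons and 24.0 and 13.4 in KI. In CA3 neurons it had 22.7 and 19.0 against 10.8 and 5.38. In DG granule neurons its 5.81 and 7.13 CPM in WT overlapped 7.08 and 5.27 in KI, unlike Klf10. Each of the other 4 lay lower in both KI libraries, without overlap, in all but 1 of the DG, CA1 and CA3 classes, and overlapped in that 1. Thus 2810455O05Rik had 9.59 and 7.93 CPM in WT and 6.49 and 8.57 in KI DG neurons, and Zkscan6 had 11.3 and 9.67 against 11.3 and 9.64 in CA3 neurons. Gpr26 had 22.8 and 21.5 against 19.8 and 21.7 CPM in CA3 neurons, and D2hgdh 6.41 and 7.49 against 5.74 and 6.93 in CA1 neurons. Without overlap, Gpr26 had 19.8 and 20.5 CPM in WT and 10.3 and 12.8 in KI CA1 neurons. These genes were picked on the same sums, so their likeness to Klf10 is no separate support. The other 9 Krüppel-like factors correlated with Klf10 between -0.46 (Klf2) and 0.08 (Klf13).

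Over all nuclei, the other family members are given as values, since this is the contrast that chose the family. Klf12 was at 231 and 239 CPM in WT and 315 and 278 in KI (log2 fold change 0.39), with no overlap. Klf3 was at 30.3 and 25.4 in WT and 17.6 and 19.7 in KI (-0.53), and Klf16 differed by -0.61, both with no overlap. Klf6 was at 8.35 and 9.39 in WT and 11.5 and 10.2 in KI (0.35). Klf13 was at 95.0 and 80.8 against 79.6 and 76.5 (-0.12), while Klf7 (81.1 and 82.4 against 84.9 and 77.1), Klf9 (87.1 and 80.3 against 89.3 and 80.4) and Klf2 (2.53 and 2.69 against 2.08 and 3.80) overlapped between genotypes. Klf4 was at 1.15 and 1.12 against 1.25 and 1.99 CPM.

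**Figure D3:**
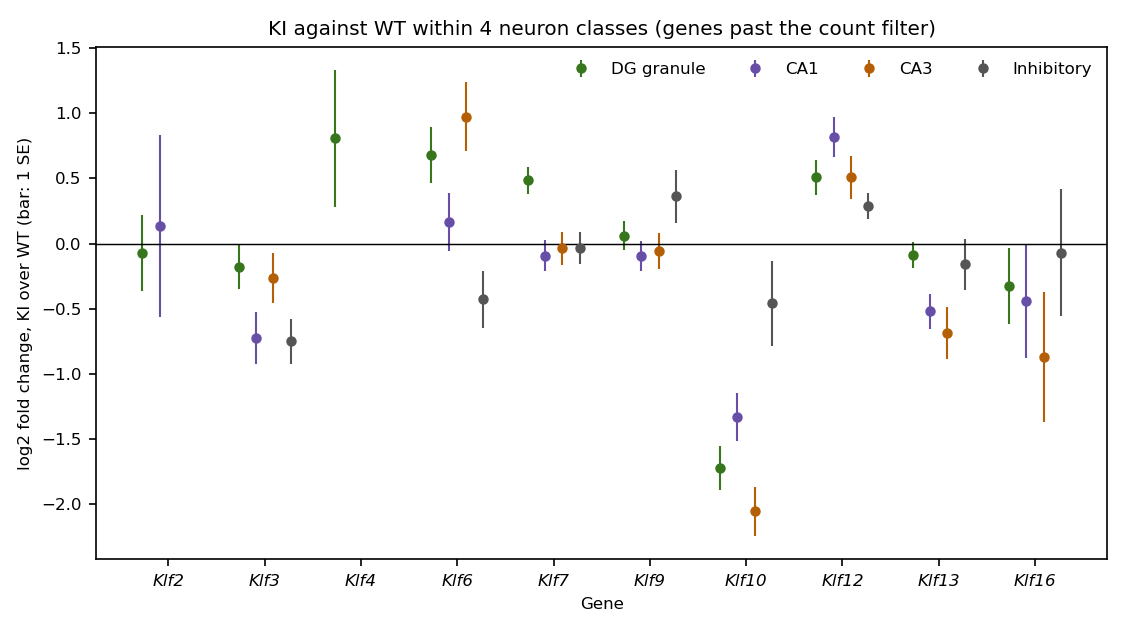
Log2 fold change (KI over WT) in DG granule, CA1, CA3 and inhibitory neurons for each gene that passed the count filter there, with bars of 1 SE. Klf10 lies between -2.05 and -0.46, Klf12 above 0 in all 4 classes (0.29 to 0.82) and Klf3 below 0 in all 4 (-0.75 to -0.18), and Klf12 in CA1 neurons is the 1 value past the threshold.

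Within classes, the 9 genes other than Klf10 were tested for KI against WT with edgeR's quasi-likelihood test and Benjamini-Hochberg adjustment over all genes of the class. A low-count filter left 76 of 108 possible results. A member that passed it only through 1 genotype had to differ, so no share of these 76 is read as a result. Exactly 1 passed the threshold of 0.05, Klf12 in CA1 pyramidal neurons, and the unadjusted p of 15 lay below 0.05 (10 higher and 5 lower in KI), as it did for 15.6% of the results over all genes. Without WT replicate 1 the count was 0, without KI replicate 1 it was 13 and without KI replicate 2 it was 21. The calls over all genes moved in the same direction, from 1.74% of results to 0.864%, 8.72% and 19.3%. Over all genes tested, 7.2% were called in DG granule neurons, 2.6% in CA1 and 2.38% in CA3 pyramidal neurons, 0.812% in inhibitory neurons, 0.549% in astrocytes, 0.211% in OPCs and 0.247% in mural cells. In oligodendrocytes, subicular or cortical neurons, microglia, Cajal-Retzius cells and fibroblasts it was 0.0%, where edgeR gave 1531, 1474, 385, 170 and 110 genes with an unadjusted p below 0.05 and DESeq2 called 66, 30, 0, 0 and 0. In 7 of 12 classes Klf12 was higher in both KI libraries than in both WT libraries, as were 18.5% of all results over all genes with 10 UMIs or more. Klf3 was lower without overlap in 7 of 11 and Klf7 in 7 of 12 classes, against 27.7% of all results. Klf13 was lower in 6 and higher in 3 of 12. These counts use CPM by library totals, where the median DG granule neuron gene stood at a log2 fold change of -0.12, against 0.01 with TMM factors. With TMM factors Klf7 had 0.01 in subicular, -0.04 in CA3 and inhibitory and -0.09 in CA1 neurons. It had -0.36 in OPCs, -0.46 in astrocytes and -0.60 in fibroblasts. No such count is read as a result.

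In CA1 pyramidal neurons, Klf12 had 73.2 and 98.0 CPM in WT and 145 and 139 in KI. The log2 fold change was 0.82 (SE 0.15, adjusted p = 0.0439), with both KI libraries above both WT libraries. Without WT replicate 1 the adjusted p was 0.220, and with library totals it was 0.0572. Its antisense gene 4930517O19Rik, whose reads could not be told apart without strand, had 22.7 and 35.6 CPM in WT and 33.6 and 46.6 in KI CA1 neurons. The sum of the class's own markers was 1337 and 1185 CPM in WT and 1158 and 1025 in KI, and that of the OPC list, a class where Klf12 is high, 42.1, 64.3, 91.0 and 74.2 CPM. The part of these in the result was not tested. DG granule neurons had 209 and 203 CPM of Klf12 in WT and 291 and 245 in KI (0.51, SE 0.13, adjusted p = 0.0786 by edgeR), a result that DESeq2 called. Klf12 in oligodendrocytes was at 107 and 127 against 166 and 238 CPM (0.87, SE 0.24, adjusted p = 0.394).

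Klf7 in DG granule neurons had 57.8 and 60.7 CPM in WT and 76.5 and 75.0 in KI (0.48, SE 0.11, adjusted p = 0.0530). Klf6 there was at 3.99 and 4.49 against 5.99 and 6.45 CPM (0.68, adjusted p = 0.115) and in CA3 neurons at 6.11 and 5.26 against 11.5 and 9.41 CPM (0.97, adjusted p = 0.0908). Neither gene overlapped between genotypes in these classes. DG granule nuclei also separated by genotype when they were clustered without the 10 genes, since 1 cluster took 4080 and 3104 nuclei of the WT libraries but 198 and 590 of the KI libraries, while a second took 222 and 185 of WT but 2278 and 1630 of KI. The summed DG markers stood at 4356 and 4162 CPM in WT and 3309 and 3542 in KI, and the OPC list at 61.4 and 54.0 against 182 and 151 CPM. Their part in the DG results was not tested.

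No result of Klf3 or Klf13 passed in a neuron class. Klf3 in inhibitory neurons was at 27.0 and 25.0 CPM in WT and 13.9 and 14.9 in KI (-0.75, SE 0.17, adjusted p = 0.0792). In CA1 neurons it was at 30.9 and 24.8 against 13.2 and 18.8 CPM (-0.73, SE 0.20, adjusted p = 0.102). Klf13 in CA1 neurons was at 56.1 and 51.7 against 33.3 and 37.8 CPM (-0.52, SE 0.13, adjusted p = 0.0853), and in CA3 neurons at 44.7 and 43.6 against 20.3 and 32.0 CPM (-0.69, SE 0.20, adjusted p = 0.105). The genotypes did not overlap in any of the 4. The genotypes overlapped for Klf3 in DG granule neurons, at 24.2 and 20.05 against 15.6 and 20.2 CPM (-0.18, adjusted p = 0.532). They also overlapped for Klf13 in inhibitory neurons, at 57.0 and 43.2 against 34.2 and 49.8 CPM (-0.16, adjusted p = 0.709). In astrocytes Klf13 was at 108 and 99.7 CPM in WT against 130 and 214 in KI (0.75, adjusted p = 0.204), which did not pass, and in oligodendrocytes the genotypes overlapped.

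**Figure D4:**
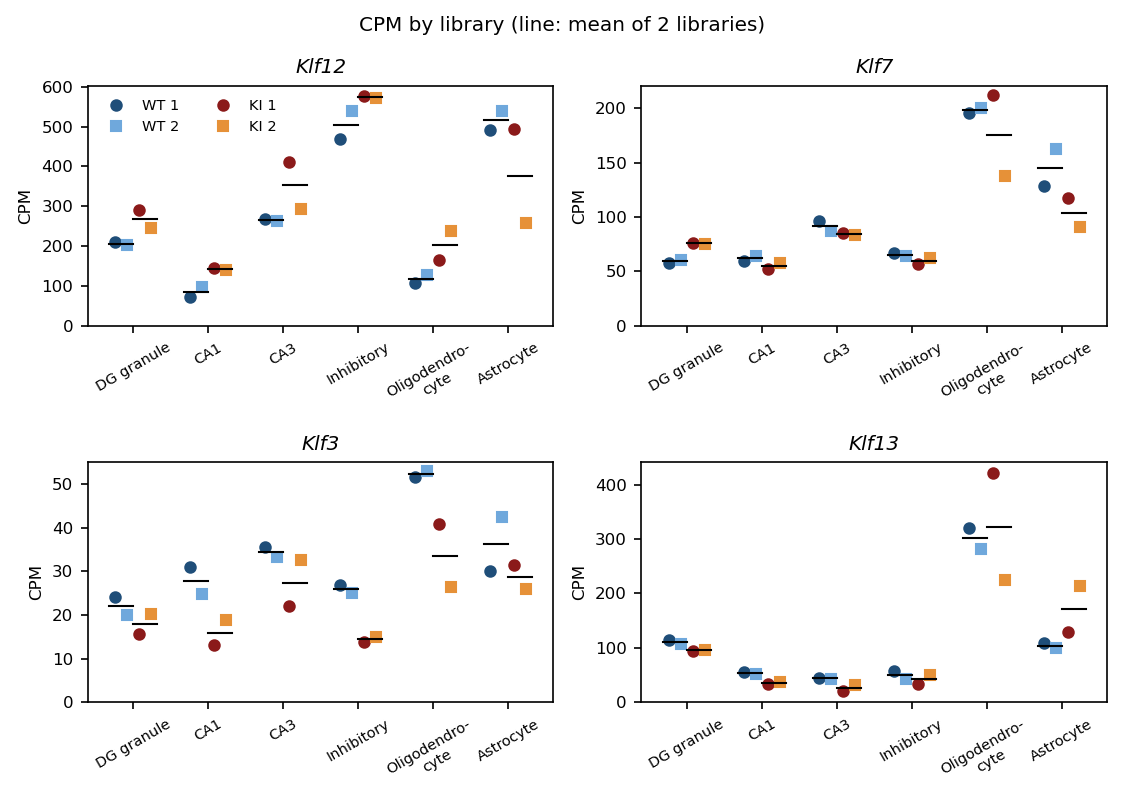
CPM of Klf12, Klf7, Klf3 and Klf13 in each library for 6 classes, where points are libraries and lines the mean of 2. Klf12 is higher in both KI libraries than in both WT libraries in DG, CA1 and CA3 neurons but not in astrocytes, and Klf13 spreads from 225 to 421 CPM among oligodendrocyte libraries.

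In oligodendrocytes the KI libraries stood apart from each other. KI replicate 1 had the highest level of Klf13 (421), Klf9 (274), Klf10 (17.5) and Klf6 (25.0 CPM), whereas KI replicate 2 had the lowest Klf13 (225), Klf9 (138), Klf10 (4.32) and Klf3 (26.4 CPM). The summed oligodendrocyte markers in these nuclei were 10747 and 10424 CPM in WT, 12007 in KI replicate 1 and 6714 in KI replicate 2, whose subicular markers were at 846 CPM against 360.5 to 438 in the other libraries. The part of this in the levels was not tested. None of the 8 tested genes passed in oligodendrocytes by edgeR or DESeq2, and 1 had an unadjusted p below 0.05.

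Whether the KI effect differed between classes was tested as a class-by-genotype term for 6 pairs of classes, and is read for the 9 genes other than Klf10. Of 53 results, 6 passed the threshold of 0.05, and the unadjusted p of 15 was under it, as was that of 14.0% of the results over all genes. Over all genes, 4.96% were called for CA1 minus DG neurons, 6.74% for CA3 minus DG neurons, 4.21% for inhibitory minus DG neurons, 2.91% for astrocytes minus DG neurons, 0.695% for CA3 minus CA1 neurons and 0.0% for oligodendrocytes minus DG neurons. Klf7 accounted for 3 of the 6, with an effect lower than in DG granule neurons by 0.58 in CA1 neurons (SE 0.11, adjusted p = 0.0217), by 0.52 in CA3 neurons (SE 0.11, adjusted p = 0.0180) and by 0.95 in astrocytes (SE 0.23, adjusted p = 0.00368). In astrocytes Klf7 was at 128 and 162 CPM in WT and 117 and 90.7 in KI, opposite in direction to DG granule neurons. The effect on Klf12 in astrocytes was 0.99 lower than in DG granule neurons (SE 0.21, adjusted p = 0.000271), with 492 and 540 CPM in WT and 493 and 259 in KI. For Klf13 it was 0.81 higher in astrocytes (SE 0.23, adjusted p = 0.0199), and for Klf6 1.10 lower in inhibitory neurons (SE 0.24, adjusted p = 0.0331). Astrocyte nuclei summed to 1577 and 1748 CPM of subicular markers in WT and 1472 and 1045 in KI, to 1151 and 1233 against 923 and 879 CPM of CA3 markers, and to 8.93 and 8.31 against 56.6 and 30.2 CPM of endothelial markers. The part of these in the astrocyte results was not tested. The 6 calls depended on single libraries. Without WT replicate 1 there were 0, without WT replicate 2 there was 1, and without KI replicates 1 and 2 there were 11 and 12, while the share called over all genes went from 3.27% to 1.37%, 1.1%, 7.45% and 8.92%.

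Genes around the family were read from 3 lists of 42 genes in the same fits. The lists were chosen with earlier results of these data known, so no share of a list that passed is read as a result. Of the other KLF and SP factors, 67 results were tested and 0 passed by edgeR, with 6 at an unadjusted p below 0.05 and 0 by DESeq2. Of the corepressors, coactivators and ligases that KLF proteins bind, 94 were tested and 0 passed, with 12 at an unadjusted p below 0.05 and 1 by DESeq2. The list of receptors, kinases and factors known to act upstream of KLF genes gave 150 results, of which 2 were higher and 9 lower in KI, all in DG, CA1 or CA3 neurons. In DG granule neurons 6 of its 15 genes passed, beside 7.2% of all genes, and the list's median log2 fold change was -0.01 and that of all genes 0.01. In CA1 neurons 3 of 15 passed, beside 2.6% of all genes (median -0.08, against 0.00 for all genes). Without WT replicate 1 the 11 calls became 7, and without KI replicates 1 and 2 they became 29 and 66, and the shares over all genes given above moved in the same direction.

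Tgfbr1, the type I receptor of TGF-β, fell in DG granule neurons from 77.0 and 74.5 CPM in WT to 18.7 and 26.9 in KI (-1.61, SE 0.16, adjusted p = 0.00863). Tgfbr2, the type II receptor that binds the ligand first, rose there from 5.60 and 5.17 to 24.1 and 18.5 CPM (2.12, SE 0.22, adjusted p = 0.00885). The sums of the 2 receptor chains over DG granule nuclei moved in opposite directions, with no overlap between genotypes for either. Mapk7, the kinase ERK5 that induces Klf2 and Klf4 in endothelium, fell from 10.7 and 11.6 to 3.33 and 3.93 CPM (-1.49, SE 0.20, adjusted p = 0.0159), a call lost without WT replicate 1 or 2 (adjusted p = 0.0653 and 0.0972). Klf2 and Klf4 in DG granule neurons had 1.97 to 2.34 and 0.738 to 2.04 CPM.

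In CA1 pyramidal neurons Smad3, which carries the TGF-β signal to the nucleus, fell from 77.5 and 77.5 CPM to 27.3 and 31.0 (-1.33, SE 0.13, adjusted p = 0.00737). Smad7, its inhibitor, fell from 33.6 and 33.9 to 14.5 and 15.7 CPM (-1.08, SE 0.15, adjusted p = 0.0195). The other 6 calls are named after their values were seen. Smad7 also fell in DG granule neurons (31.5 and 32.5 to 9.66 and 13.4 CPM) and in CA3 neurons (26.3 and 29.8 to 11.5 and 11.7 CPM). Tgfbr2 rose in CA3 neurons at the limit of the test (1.80, SE 0.39, adjusted p = 0.0499) and lost the call under 7 of 12 alternatives. Nr3c2, the mineralocorticoid receptor, fell in DG granule neurons from 1206 and 1302 to 476 and 499 CPM (-1.24, adjusted p = 0.00498). Nr3c1, the glucocorticoid receptor, fell in DG granule neurons from 87.5 and 77.0 to 40.7 and 45.7 CPM (-0.80, adjusted p = 0.0186) and in CA1 neurons from 110 and 105 to 52.4 and 55.3 CPM (-0.91, adjusted p = 0.0150). The DG call of Nr3c1 was lost without WT replicate 1 or 2 (adjusted p = 0.201 and 0.0826), and the CA1 call without WT replicate 1 (adjusted p = 0.0504). Klf9, which both receptors are known to induce, lay at 98.8 and 97.6 CPM in WT and 96.7 and 90.3 in KI DG granule neurons (0.06, SE 0.11, adjusted p = 0.759).

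**Figure D5:**
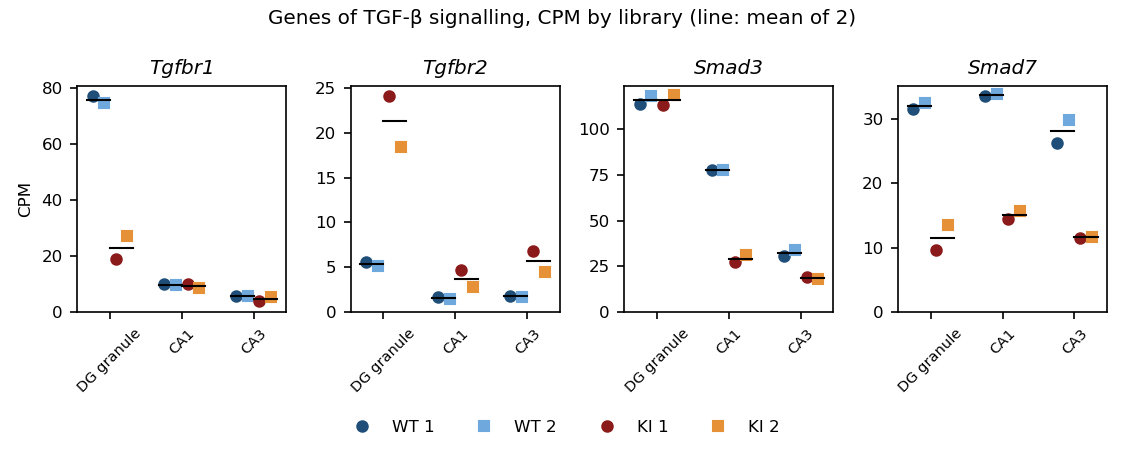
CPM of Tgfbr1, Tgfbr2, Smad3 and Smad7 in each library for DG granule, CA1 and CA3 neurons, where points are libraries and lines the mean of 2. In DG granule neurons Tgfbr1 falls from 74.5 or more to 26.9 or less and Tgfbr2 rises from 5.60 or less to 18.5 or more.

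On the genome, none of the 10 genes lies beside another, and GENCODE M21 (GRCm38) places each on a chromosome of its own. Klf12 (ENSMUSG00000072294) spans 414048 bases of chromosome 14, 99870632 to 100284679 on the minus strand, and Klf7 (ENSMUSG00000025959) 92836 bases of chromosome 1, 64029447 to 64122282 on the minus strand. Klf2 (ENSMUSG00000055148), at 2624 bases the shortest, lies on chromosome 8 at 72319033 to 72321656 on the plus strand. Klf9 (ENSMUSG00000033863) lies on chromosome 19 at 23141226 to 23168134, plus strand, and Klf13 (ENSMUSG00000052040) on chromosome 7 at 63886351 to 63938915, minus strand. Klf3 (ENSMUSG00000029178) lies on chromosome 5 at 64803388 to 64832901, plus strand, and Klf4 (ENSMUSG00000003032) on chromosome 4 at 55527143 to 55532466, minus strand. Klf6 (ENSMUSG00000000078) lies on chromosome 13 at 5861482 to 5870394, plus strand, and Klf16 (ENSMUSG00000035397) on chromosome 10 at 80567124 to 80577321, minus strand. Besides Klf12, opposite-strand genes with counts overlap Klf3 (Gm20033, 10660 UMIs), Klf7 (Gm13748, 1234 UMIs) and Klf13 (E030018B13Rik, 806 UMIs, and Gm27252, 434 UMIs), so that values of these genes are uncertain to that extent.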

How the data were processed

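RNA of nuclei from 2 WT and 2 KI hippocampi was counted. The authors deposited raw UMI counts per gene and barcode for barcodes called as nuclei, made with Cell Ranger 7.0.1 per the file headers, on mm10 per the submitters' notes. The annotation and the use of introns and strand are not given in the sources used here. Groups came from GEO's titles.

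Nuclei had to show 500 or more genes and less than 5% mitochondrial UMIs, and 3263 doublets (5.90%) with a Scrublet score above 0.25 were removed (scanpy 1.11.5, expected rate 0.08), a limit set after the scores had been seen. The kept nuclei held 66272968 to 73353838 UMIs per library. Nuclei were gated on mean scaled marker expression. A gate needed a score of 0.2, a margin of 0.05 over the next class and 3 markers, limits set after the scores but before values of the 10 genes were seen, and 5626 nuclei (10.8%) lay near them. As an alternative, nuclei were clustered (leidenalg 0.10.2, resolution 0.5) without the 10 genes. Of 33874 nuclei with both names, 94.9% had the same. The study's own cell names may differ.

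Counts were summed per library and class and tested by quasi-likelihood in edgeR 4.0.16 (R 4.3.3) after its low-count filter and TMM scaling, with Benjamini-Hochberg adjustment over all genes of a fit and a threshold of 0.05. Class levels and class-by-genotype terms were fitted with the library as a block. Nuclei were not replicates, unlike in the study's own test of single nuclei. The scripts were tested on simulated data. Alternatives were RLE factors, library totals, no filter, DESeq2 1.42.0, a replicate block, each library left out, doublets kept, nuclei with at least 1000 genes, and clusters. Named genes were the 10 members, up to 2 list genes per direction with the largest change in the 4 neuron classes with most nuclei, oligodendrocytes and astrocytes, and the 5 genes most like Klf10. The members and lists were chosen with earlier results of these data known.

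RefSeq windows of GRCm38.p6 gave sequences, and GENCODE M21, which holds 32158 of the 32285 gene IDs, gave positions.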

Additional observations from a re-analysis of the deposited data

Results flagged for a closer look

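For 6 of 53 tested results, those of Klf10 left out, the KI effect (log2 fold change, KI over WT) differed between a pair of classes by edgeR's class-by-genotype term with Benjamini-Hochberg adjustment, and these are worth a closer look. Klf7 differed by -0.58 between CA1 pyramidal and DG granule neurons, by -0.52 between CA3 pyramidal and DG granule neurons and by -0.95 between astrocytes and DG granule neurons. Klf12 differed by -0.99 and Klf13 by 0.81 between astrocytes and DG granule neurons. Klf6 differed by -1.10 between inhibitory and DG granule neurons. All 6 share the 4 sums of DG granule neurons, which were a partner in all but 1 of the 6 pairs tested. Klf13 lost the call under 6 of 9 alternatives, with an adjusted p of 0.000344 to 0.800. No group had the 4 samples that a search for single outlying samples needs.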

How the results depend on the processing

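Across 12 alternatives the log2 fold change of Klf10 over all nuclei lay between -1.51 and -1.41. For the 9 other genes within classes, the 1 call became 0 with library totals, 9 with no low-count filter, 2 with DESeq2 and 2 with clusters, and 0 to 21 with 1 library left out, where the lone library is assumed to vary like the other group. With the replicate number as a block it became 7 (Klf3, Klf12 and Klf13 in CA1, Klf12 and Klf13 in CA3, Klf7 and Klf12 in DG neurons). The labels do not pair the mice, and deviations of same-numbered libraries correlated at 0.03 over all nuclei and between -0.33 (microglia) and 0.17 (subicular or cortical neurons) in the classes, with 0.12 in CA1 neurons, so the block was not taken as a pairing. A crossed block, chosen after seeing the data, gave 65 genes in microglia and 0 in Cajal-Retzius cells, against 0 and 0. Calls for the 42 list genes went from 11 to 17 with no filter, 16 with the replicate block and 7 to 66 with 1 library left out, alternatives added after the data were seen. The 45 class level calls became 38 to 52, and of 432 single checks of these, 56 lost the call and 0 changed sign. The class differences, 7 with that of Klf10, became 0 to 13 with 1 library left out. With library totals the median gene of DG granule neurons stood at a log2 fold change of -0.12, against 0.01, and they split its calls into 461 higher and 739 lower, against 636 and 574. The causes were not tested. Sparse genes (Klf2, Klf4 and Klf16, with 773, 384 and 583 UMIs) could be tested for genotype in 4, 2 and 6 classes, and the size of difference that could be detected was not measured.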
